A study of Homo sapiens with 24 samples.

Results

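Aminoacyl-tRNA synthetases join each amino acid to its transfer RNA, and the listed members were 35 of these genes, 19 for cytosolic enzymes and 16 for mitochondrial enzymes, out of 19775 genes that could be named on the arrays. Members were chosen by gene name, with earlier results of these data known. Of the 35, 32 were measured (17 cytosolic, 15 mitochondrial), each with its probe set of highest mean, and all 32 passed the filter on dim genes. MARS1, QARS1 and TARS2 had only probe sets annotated with several genes and were not analysed here. GARS1 and KARS1 are counted as cytosolic, although each gene also makes the mitochondrial enzyme.

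The arrays came from 3 established human breast cancer cell lines, and the study asked what follows when MCT1, a transporter of lactate and pyruvate, is lowered or blocked. SUM149PT cells carried a lentiviral MCT1 shRNA or a scrambled shRNA, and both kinds were kept for 5 days in puromycin at 2 µg/ml. HS578T, SUM149PT and SUM159PT cells received AZD3965, an MCT1 inhibitor, or its vehicle DMSO for 24 hours. Each of the 8 groups had 3 arrays. The shRNA was tested in SUM149PT only, its sequence and the drug dose are not given in the sources used here, and HS578T was grown in another medium (DMEM) than SUM149PT and SUM159PT (supplemented F12). Nothing in the labels says that the 3 arrays of a group are of separate cultures. P-values therefore measure the spread between arrays, which may be technical.

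In the cytosol these enzymes supply charged transfer RNA to ribosomes, and a separate set of nuclear genes, most with names ending in a 2, supplies the mitochondrial ribosome. When an amino acid runs short, uncharged transfer RNA activates the kinase GCN2 (EIF2AK4), translation of the transcription factor ATF4 rises, and ATF4 raises amino acid transporters, biosynthetic enzymes and many of the cytosolic synthetases. ATF4 with C/EBP partners binds the C/EBP-ATF response element. Classes I and II of synthetases have unrelated catalytic folds, and some cytosolic members sit together in the multisynthetase complex.

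The response element was searched as TGATGNAAN on both strands of the RefSeq promoters (GRCh38.p14, 250 bases before to 50 after each listed start), because many of these genes are known ATF4 targets. It was found in 7 of 16 cytosolic members with an entry (AARS1, CARS1, GARS1, IARS1, TARS1, NARS1 and MARS1) and in 1 of 14 mitochondrial members (YARS2), against 4.45% of 27305 genes in the table. The stricter TGATGCAAT, whose matches are a subset of those, was found in TARS1 alone among members, against 0.293% of all genes. LARS1, VARS1, YARS1, AARS2 and VARS2 had no entry. The windows below show the matches of the measured members in capitals with up to 26 bases on either side, written 5′ to 3′ on the strand of the gene and ending at most 30 bases past the start.
AARS1, chr16:70289660-70289720, minus strand: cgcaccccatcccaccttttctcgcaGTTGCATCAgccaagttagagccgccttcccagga
CARS1, chr11:3057394-3057452, minus strand: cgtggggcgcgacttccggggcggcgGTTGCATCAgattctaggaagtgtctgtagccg
GARS1, chr7:30594818-30594878, plus strand: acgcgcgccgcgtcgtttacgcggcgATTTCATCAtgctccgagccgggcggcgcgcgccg
IARS1, chr9:92293677-92293737, minus strand: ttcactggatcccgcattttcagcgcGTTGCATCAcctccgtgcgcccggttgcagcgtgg
TARS1, chr5:33440940-33440994, plus strand: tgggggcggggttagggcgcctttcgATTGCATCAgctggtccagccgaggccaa
NARS1, chr18:57621807-57621848, minus strand: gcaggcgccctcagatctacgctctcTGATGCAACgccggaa
YARS2, chr12:32756060-32756120, minus strand: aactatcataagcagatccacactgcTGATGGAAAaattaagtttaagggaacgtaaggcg
In AARS1, CARS1 and IARS1 the match lies on the opposite strand, where it reads TGATGCAAC, and shows as GTTGCATCA in the windows. In NARS1, with the same letters TGATGCAAC, and in YARS2 it lies on the strand of the gene. It begins 188 bases before the listed start in AARS1, 34 before in GARS1, 14 before in IARS1, 3 before in CARS1 and 197 before in YARS2, and at position 2 in TARS1 and 15 in NARS1. In TARS1 and GARS1 it lies at 1 of 2 listed starts. A match describes letters only and shows no binding. The promoters of the members with the largest differences under MCT1 shRNA are given whole up to 30 bases past the start, AARS1 with its match in capitals and WARS1 with none.
AARS1 promoter, chr16:70289477-70289756, minus strand: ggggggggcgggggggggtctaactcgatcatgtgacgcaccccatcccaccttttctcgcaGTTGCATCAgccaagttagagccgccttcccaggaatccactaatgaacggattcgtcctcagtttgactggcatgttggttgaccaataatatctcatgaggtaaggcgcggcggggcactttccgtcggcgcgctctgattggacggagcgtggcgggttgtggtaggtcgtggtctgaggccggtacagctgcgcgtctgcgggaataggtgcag
WARS1 promoter, chr14:100376298-100376577, minus strand: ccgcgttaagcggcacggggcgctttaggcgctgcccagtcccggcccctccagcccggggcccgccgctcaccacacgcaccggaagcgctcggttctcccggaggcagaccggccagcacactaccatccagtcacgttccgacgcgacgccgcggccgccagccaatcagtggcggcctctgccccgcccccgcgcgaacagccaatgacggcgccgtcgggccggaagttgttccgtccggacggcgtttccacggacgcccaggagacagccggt

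In array quality 1 array stood far apart. On the third scramble array the 3′ control probes exceeded the 5′ ones 53.8-fold for actin and 2.35-fold for GAPDH, a measure of RNA quality, against 1.20 to 2.14 and 0.798 to 0.948 on the other 23 arrays. Calls of the shRNA comparison that are lost without it are named beside their values. The actin ratio was 1.39 to 2.14 on the other 5 shRNA arrays and 1.20 to 1.37 on the 18 arrays of the inhibitor experiment. These ranges did not overlap. The summed signal of 6 epithelial markers was 5987 to 6124 in HS578T, 53710 to 56303 in SUM149PT and 9397 to 11370 in SUM159PT under DMSO, and that of 4 mesenchymal markers was 37034 to 41249, 11735 to 12840 and 30485 to 34905. Sums for leukocyte, endothelial and adipocyte markers were at most 570.0, 450.2 and 51.9 on any array.

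In SUM149PT cells with MCT1 shRNA, many cytosolic synthetase genes rose, while no mitochondrial one passed the test. Of 17 cytosolic members, 10 were higher than with scramble shRNA at an adjusted p under 0.05 (limma), 0 were lower and 7 were not called. None of the 15 mitochondrial members was called in either direction, and 0 had an unadjusted p under 0.05, where 3910 of all genes tested did. Over all 14141 genes tested, 7.22% were called higher and 7.64% lower. The median log2 fold change was 0.30 for the cytosolic and -0.01 for the mitochondrial members, beside -0.003 for all genes. Every MCT1 shRNA array exceeded every scramble array for 12 cytosolic members (the 10 called, HARS1 and NARS1) and for 0 mitochondrial ones, where 14.6% of all genes did so. Centring each array on its median moved the median of all genes by -0.11 and the share of higher calls to 23.1%, against 48.6% as deposited. The cytosolic members then lay 0.30 above all genes, as before, and 6 of them were called higher and 1, VARS1, lower.

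**Figure D1:**
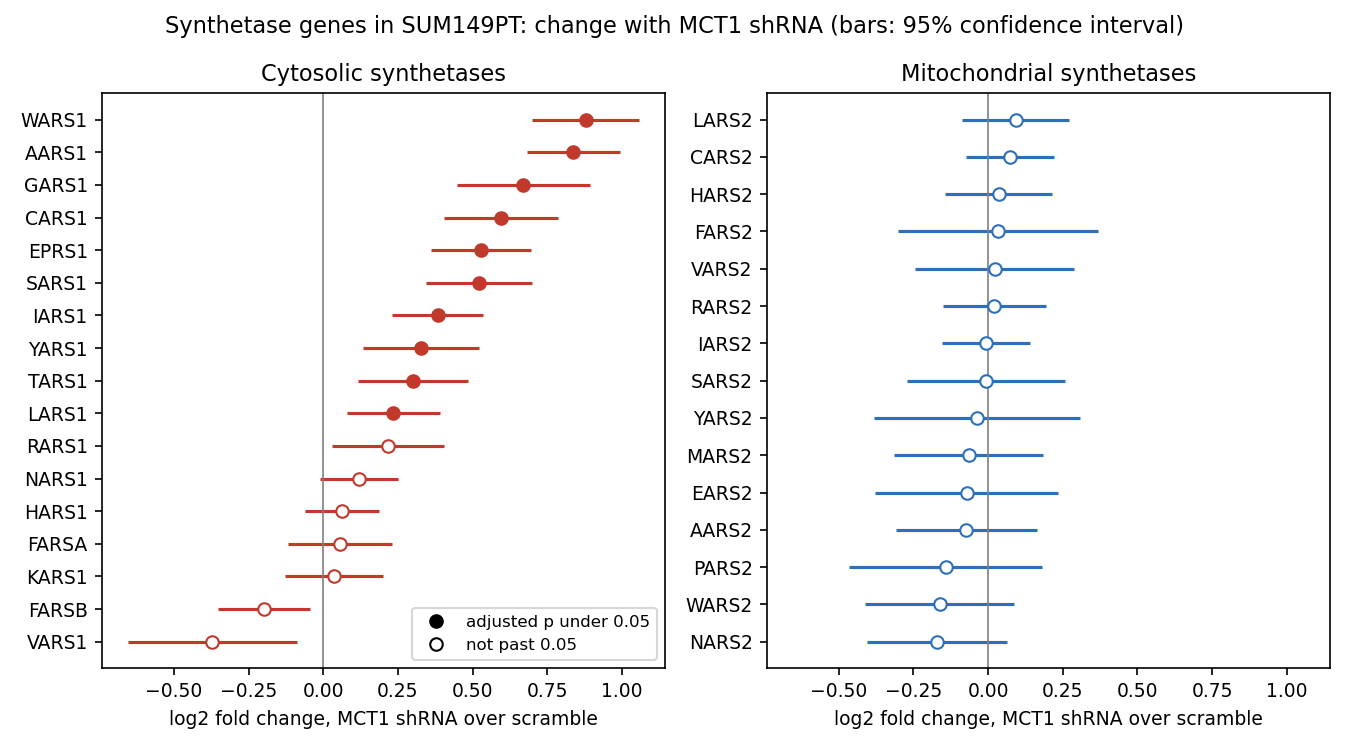
Change of each synthetase gene with MCT1 shRNA in SUM149PT, as log2 fold change over scramble shRNA with its 95% confidence interval (3 arrays per group). Filled points passed an adjusted p of 0.05: 10 of 17 cytosolic genes, all to the right of 0, and 0 of 15 mitochondrial genes.

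The tryptophanyl enzyme gene WARS1, which interferon is also known to induce, and the alanyl enzyme gene AARS1 differed most. WARS1 (chr14:100333790-100376327, GRCh38.p14) gave signals of 2733, 2809 and 3105 with MCT1 shRNA, against 1573, 1406 and 1706 with scramble shRNA. AARS1 (chr16:70252298-70289506) gave 5483, 5749 and 5756, against 3355, 3208 and 2934. In both genes the lowest MCT1 shRNA array was well above the highest scramble array. The log2 fold change was 0.88 ± 0.09 for WARS1 (SE, n = 3 per group, adjusted p = 1.8e-07 by limma) and 0.84 ± 0.08 for AARS1 (adjusted p = 5.4e-08), that is 1.84-fold and 1.79-fold.

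GARS1, CARS1, EPRS1 and SARS1 followed. They encode the glycyl, cysteinyl and seryl enzymes and, in EPRS1, a bifunctional glutamyl-prolyl enzyme. GARS1 (chr7:30594735-30634033) gave 9134, 9766 and 10398 with MCT1 shRNA, against 6373, 6480 and 5554 with scramble shRNA. CARS1 (chr11:3000929-3057423) gave 10494, 10298 and 11314, against 7600, 7038 and 6612. The groups of neither gene overlapped. EPRS1 (chr1:219968600-220046505) gave 10864, 10771 and 11652 with MCT1 shRNA, against 8316, 7830 and 6963 with scramble shRNA. SARS1 (chr1:109213893-109238182) gave 6499, 7147 and 7296, against 4752, 4567 and 5259. All 3 MCT1 shRNA arrays were again the higher ones in both. The log2 fold changes were 0.67 ± 0.11 for GARS1 (adjusted p = 0.00012), 0.60 ± 0.09 for CARS1 (8.4e-05), 0.53 ± 0.08 for EPRS1 (7.3e-05) and 0.52 ± 0.09 for SARS1 (0.00017).

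The isoleucyl, tyrosyl, threonyl and leucyl enzyme genes showed smaller rises. IARS1 gave 17987, 18350 and 18174 with MCT1 shRNA, against 14447, 14988 and 12482 with scramble shRNA, a log2 fold change of 0.38 ± 0.07 (adjusted p = 0.00079). YARS1 gave 7371, 7408 and 8270, against 5998, 5657 and 6724, or 0.33 ± 0.09 (0.019). For these 2 genes, too, the groups did not overlap. TARS1 gave 5434, 4414 and 5015 with MCT1 shRNA, against 3942, 4286 and 3806 with scramble shRNA, or 0.30 ± 0.09 (0.024). LARS1 gave 4994, 4727 and 4661, against 4333, 4439 and 3506, or 0.23 ± 0.08 (0.037). In TARS1 and LARS1 the nearest arrays of the 2 groups lay close together. Without the third scramble array 8 cytosolic members were called, and TARS1 (0.26, adjusted p = 0.083) and LARS1 (0.13, adjusted p = 0.22) were not, while WARS1 then stood at 0.95 and AARS1 at 0.78.

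**Figure D2:**
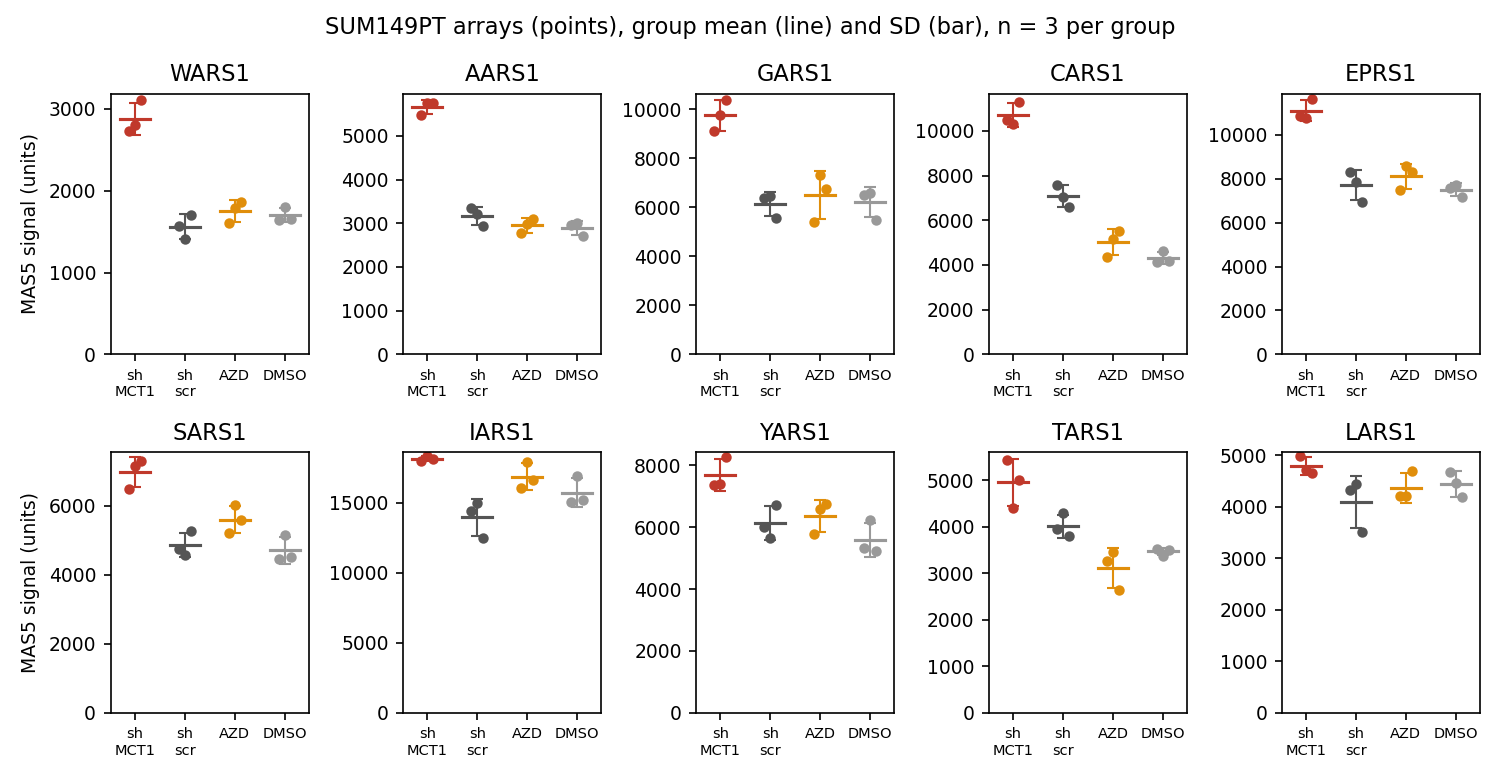
MAS5 signal on each SUM149PT array (points) for the 10 cytosolic synthetase genes called higher with MCT1 shRNA, with the group mean (line) and SD (bar), n = 3. From left to right in each panel the groups are MCT1 shRNA, scramble shRNA, AZD3965 and DMSO. The MCT1 shRNA arrays lie above the scramble arrays in every panel, while no gene was called for AZD3965 over DMSO.

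The other 7 cytosolic members were not called. RARS1, for arginine, gave 8317, 8542 and 8975 with MCT1 shRNA, against 7895, 8478 and 6071 with scramble shRNA, a log2 fold change of 0.22 ± 0.09 (adjusted p = 0.11), and the lowest scramble array was the third. NARS1, for asparagine, stood at 0.12 ± 0.06 (0.22), although its arrays did not overlap. HARS1, FARSA and KARS1, for histidine, phenylalanine and lysine, lay between 0.04 and 0.06. FARSB, the other subunit of the phenylalanyl enzyme, gave 5351, 5651 and 5664 with MCT1 shRNA, against 6457, 6422 and 6247 with scramble shRNA, or -0.20 ± 0.08 (0.079). VARS1, for valine, gave 1687, 2132 and 2491, against 2506, 2338 and 3330, or -0.37 ± 0.14 (0.071). The arrays of VARS1 overlapped between the groups and those of FARSB did not.

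The 15 mitochondrial members ran from -0.17 ± 0.11 in NARS2 (adjusted p = 0.36) to 0.09 ± 0.09 in LARS2 (0.55). WARS2 gave 1031, 1020 and 1045 with MCT1 shRNA, against 997, 1054 and 1473 with scramble shRNA, so that the third scramble array alone stood apart. IARS2, for isoleucine, stood at -0.007 with a 95% interval of -0.15 to 0.14, and CARS2, for cysteine, at 0.07 with an interval of -0.07 to 0.22. Intervals were wider for YARS2 (-0.38 to 0.31) and PARS2 (-0.47 to 0.18). A rise of the size seen in LARS1 (0.23) falls inside the intervals of YARS2, LARS2 and VARS2, for example. Where both enzymes of an amino acid were measured, the cytosolic gene had the more positive log2 fold change in 11 of 13 pairings, with a median difference of 0.29. The exceptions were VARS1 with VARS2 (-0.39) and FARSB with FARS2 (-0.23). The pairing was widest for WARS1 with WARS2 (1.04) and AARS1 with AARS2 (0.91).

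Subgroups of the cytosolic members are given as counts. Among class I enzymes 5 of 7 rose (median log2 fold change 0.33) and among class II enzymes 4 of 9 (median 0.12), with EPRS1 spanning both classes. Of the complex-bound enzymes 3 of 5 rose (EPRS1, IARS1 and LARS1), and of those outside the complex 7 of 12. Of the 12 measured members listed from general knowledge as amino acid response or ATF4 genes 10 rose, with a median of 0.45, and the exceptions were NARS1 and VARS1. Of the other 5 cytosolic members 0 rose, with a median of 0.06. That list is no independent evidence of the direction. Of the 8 called cytosolic members with a promoter entry 5 held the response element, and of the 6 measured ones that were not called 1 did, NARS1. WARS1, EPRS1 and SARS1 rose with no match in the window, which says only that these letters are not there.

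Other probe sets of the called members mostly pointed the same way. Of 12 past the filter, in 7 genes, 10 were positive and 4 were called higher, in CARS1 (0.53 and 1.19), SARS1 (0.90) and WARS1 (0.99). Another probe set of LARS1 stood at -1.13 with a mean signal of 149, and another of CARS1 at -0.36. When all probe sets were fitted together, the main one of LARS1 had an adjusted p of 0.053. Of 15 other probe sets of members that were not called, 1 was called, in FARSB, at 0.60 with a mean signal of 70.5, opposite in sign to its main probe set. Levels are not compared between probe sets.

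Among genes around charging, most of those listed for amino acid sensing and the ATF4 response also rose with MCT1 shRNA. Amino acid supply and charging were not measured, and the cause of this rise was not tested. Of 8 genes of amino acid sensing and the ATF4 response 6 rose, with and without the third scramble array, 0 fell, and EIF2AK4 (0.04 ± 0.13) and its activator GCN1 (0.06 ± 0.12) were not called. CHAC1, which breaks down glutathione, gave 693, 721 and 826 with MCT1 shRNA, against 137, 177 and 201 with scramble shRNA, a log2 fold change of 2.03 ± 0.17 (adjusted p = 2.7e-08). SESN2, a leucine sensor, stood at 1.63 ± 0.20 (4.5e-06), TRIB3, a pseudokinase, at 0.81 ± 0.08 (1.0e-07) and ATF4 itself at 0.49 ± 0.08 (0.00022). Of the complex scaffold AIMP1 alone was measured and stood at -0.07 ± 0.06 (0.44). Charging helpers of the mitochondrion (QRSL1, GATB, GATC and MTFMT) gave 0 calls in 4, mitochondrial elongation factors 0 in 3 and transfer RNA maturation and export 0 in 5.

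Members of 3 small lists also passed. PSTK, the kinase on the selenocysteine route, fell by 0.46 ± 0.11 on the log2 scale (adjusted p = 0.0077), and its partner SEPSECS stood at -0.24 ± 0.17 (0.41). DTD2, which removes wrongly charged amino acids from transfer RNA, fell by 0.46 ± 0.08 (0.00050), and DTD1 stood at -0.23 ± 0.09 (0.080). Of 4 cytosolic elongation factors EEF1A2 (0.89 ± 0.30, 0.048) and EEF2 (0.20 ± 0.07, 0.041) passed, but both calls rest on the third scramble array. EEF1A2 gave 1866, 1642 and 1727 with MCT1 shRNA, against 1320, 1368 and 449 with scramble shRNA, and without that array it stood at 0.37 ± 0.23 (adjusted p = 0.36) and EEF2 at 0.17 ± 0.07 (0.13). PSTK (-0.39, 0.041) and DTD2 (-0.44, 0.0022) were still called without it. Both were also higher with scramble shRNA (mean signals of 992 and 1293) than with DMSO (380 and 880), beside 716 and 933 with MCT1 shRNA. The summed epithelial markers were also higher with MCT1 shRNA, at 62776 to 67399 against 47230 to 54153 with scramble shRNA, where the lowest scramble sum is that of the third array and the other scramble sums are 53503 and 54153. Of the 6, KRT19 (1.09 ± 0.10) and KRT8 (0.64 ± 0.17) were called, and without the third scramble array KRT19 (0.97 ± 0.10) was called and KRT8 (0.33 ± 0.12, adjusted p = 0.080) was not. The 4 mesenchymal markers summed to 11841 to 13445 and 12834 to 14295, with 0 called. CDH1 (0.19 ± 0.15) and EPCAM (0.03 ± 0.22) were not called, and the part of this shift in the synthetase result was not tested. In bulk RNA a larger share of cells of a type and more RNA per cell cannot be told apart.

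AZD3965 for 24 hours changed no member at this threshold in any line. In SUM149PT 0 of 32 were called, where 0.0283% of all genes were. Their log2 fold changes were positive in 27 of 32 (57.5% of all genes were), with medians of 0.10 for cytosolic and 0.16 for mitochondrial members beside 0.04 for all genes. Of the 32 members 9 had an unadjusted p under 0.05, where 2330 of all 14141 genes tested did. The smallest adjusted p was that of HARS1, with signals of 3008, 3131 and 3433 with AZD3965, against 2725, 2906 and 2774 with DMSO, a log2 fold change of 0.18 ± 0.06 (adjusted p = 0.17). SARS1 stood at 0.25 ± 0.09 (0.17) and KARS1 at 0.22 ± 0.08 (0.18). EARS2, for mitochondrial glutamate, had the largest difference at 0.40 ± 0.15 (0.19), with 529, 762 and 793 with AZD3965, against 510, 544 and 489 with DMSO, where the first AZD3965 array stayed near the controls. Without that array EARS2, HARS1 (0.23, adjusted p = 0.048) and KARS1 (0.29, adjusted p = 0.047) were called, and 648 of all genes tested, against 4 with it, so that 1 array decides the count for the AZD3965 effect in SUM149PT.

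The 2 members with the largest shRNA differences, AARS1 and WARS1, had log2 fold changes near 0 with the drug in the same line. AARS1 gave 2770, 2979 and 3104 with AZD3965, against 2958, 3007 and 2713 with DMSO, a log2 fold change of 0.03 with a 95% interval of -0.13 to 0.18. WARS1 gave 1608, 1787 and 1862, against 1646, 1800 and 1659, or 0.04 with an interval of -0.14 to 0.22. In both genes the groups overlapped. GARS1 stood at 0.06 (-0.16 to 0.28) and TARS1 at -0.16 (-0.35 to 0.02). Larger positive values, none of them called, were those of SARS1 at 0.25 (0.07 to 0.43), CARS1 at 0.21 (0.02 to 0.40, adjusted p = 0.25) and YARS1 at 0.19 (adjusted p = 0.32). The AZD3965 arrays of SARS1, at 5205, 6010 and 5589, lay above its DMSO arrays, at 4448, 5153 and 4519. The shRNA and the drug differed in time and in kind of treatment, and their arrays in the actin control ratio, so the comparison holds for these conditions only.

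The difference between the 2 effects was tested directly, each against its own control. The shRNA effect exceeded the AZD3965 effect in 5 cytosolic members and was below it in 1, against 4.58% and 4.94% of all genes, and 0 of 15 mitochondrial members differed at this threshold. The difference was 0.84 ± 0.12 for WARS1 (adjusted p = 0.00011), 0.81 ± 0.11 for AARS1 (3.7e-05), 0.61 ± 0.15 for GARS1 (0.013), 0.46 ± 0.13 for TARS1 (0.022) and 0.41 ± 0.11 for EPRS1 (0.024). FARSB differed the other way at -0.40 ± 0.11 (0.018). For CARS1 (0.38 ± 0.13, 0.069), IARS1 (0.28 ± 0.10, 0.092) and SARS1 (0.27 ± 0.12, 0.17) the difference was not called. Other probe sets read differently in 3 of these genes: the dim one of FARSB gave 1.47 ± 0.27 (adjusted p = 0.0022), opposite to its main one, and another of SARS1 gave 1.00 ± 0.14 (0.00019). Of the others of CARS1, a pair was called at 0.63 and 1.27. The median difference was 0.26 for cytosolic and -0.17 for mitochondrial members, beside -0.04 for all genes. Centring each array on its median left AARS1 and WARS1 as the only members called, and leaving out the first DMSO array left those and GARS1. The call of EPRS1 was lost in 8 of 22 alternatives, including without the third scramble array. That of TARS1 was lost in 6, and FARSB lost its call in 4 and reversed in 1.

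**Figure D3:**
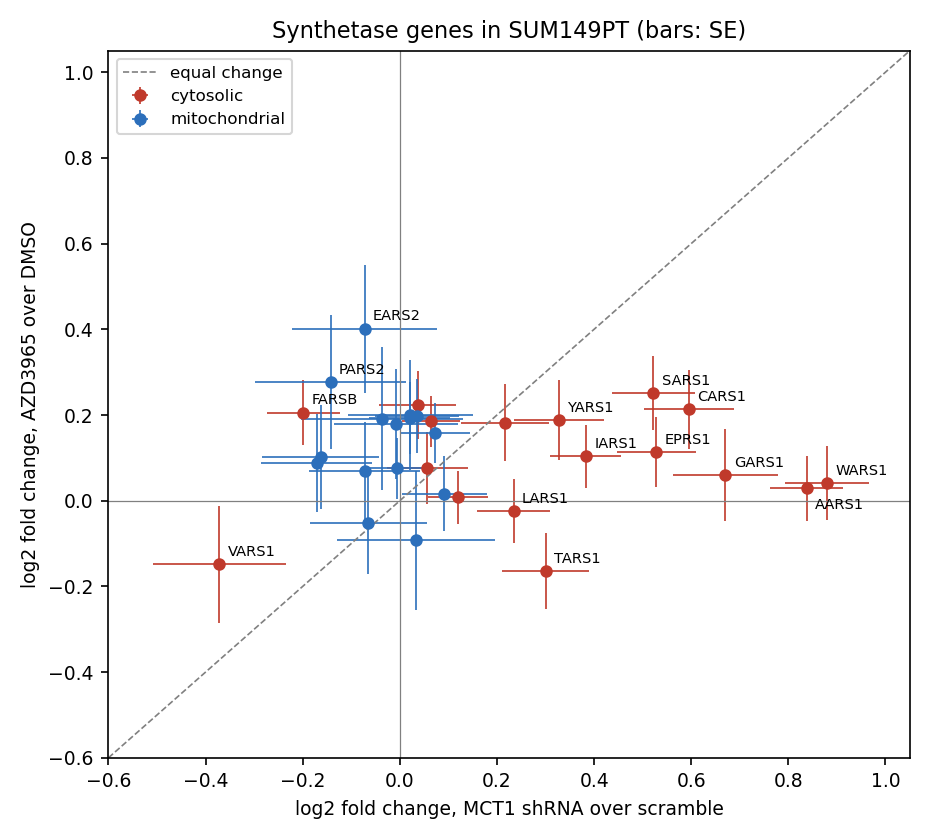
Log2 fold change with MCT1 shRNA over scramble (horizontal) against that with AZD3965 over DMSO (vertical) for 32 synthetase genes in SUM149PT, with SE bars, and the line of equal change dashed. AARS1 and WARS1 lie far to the right at an AZD3965 change near 0, and the mitochondrial genes cluster around 0 on the shRNA axis.

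In HS578T and SUM159PT, AZD3965 again gave 0 calls among the 32 members, against 0.304% and 0% of all genes. In HS578T the members of smallest adjusted p were MARS2, LARS2 and HARS2. MARS2, for mitochondrial methionine, gave 82.0, 90.1 and 97.5 with AZD3965, against 95.4, 132 and 116 with DMSO, a log2 fold change of -0.29 ± 0.12 (adjusted p = 0.48). LARS2 stood at -0.15 ± 0.09 (0.69) and HARS2 at -0.15 ± 0.09 (0.71), and the medians were -0.04 for cytosolic and -0.02 for mitochondrial members beside -0.02 for all genes. In SUM159PT 26 of 32 were positive (50.8% of all genes), with medians of 0.13 and 0.05 beside 0.004 for all genes. Of the 32 members 2 had an unadjusted p under 0.05, a share near that of all genes (954 of 14141). These 2 members were AARS2 with 672, 740 and 656 with AZD3965, against 479, 593 and 590 with DMSO (0.31 ± 0.11, 0.73), and SARS1 (0.18 ± 0.09, 0.73). The groups of AARS2 did not overlap, but the share of all genes without overlap was not counted for AZD3965.

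Averaged over the 3 lines, 27 of 32 members were positive (49.8% of all genes) and 0 were called, where 0.0283% of all genes were. SARS1 had the smallest adjusted p at 0.17 ± 0.05 (0.19), followed by PARS2 (0.22 ± 0.09, 0.27) and KARS1 (0.11 ± 0.05, 0.29). The AZD3965 effect differed between lines in 0 members by the F test, where 0.120% of all genes were called. An unadjusted p under 0.05 was seen in 4 members, CARS1, HARS1, HARS2 and FARSB, and the share of all genes is not given here. For CARS1 the effects were -0.14 ± 0.09 in HS578T, 0.21 ± 0.09 in SUM149PT and 0.14 ± 0.09 in SUM159PT (adjusted p = 0.45).

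**Figure D4:**
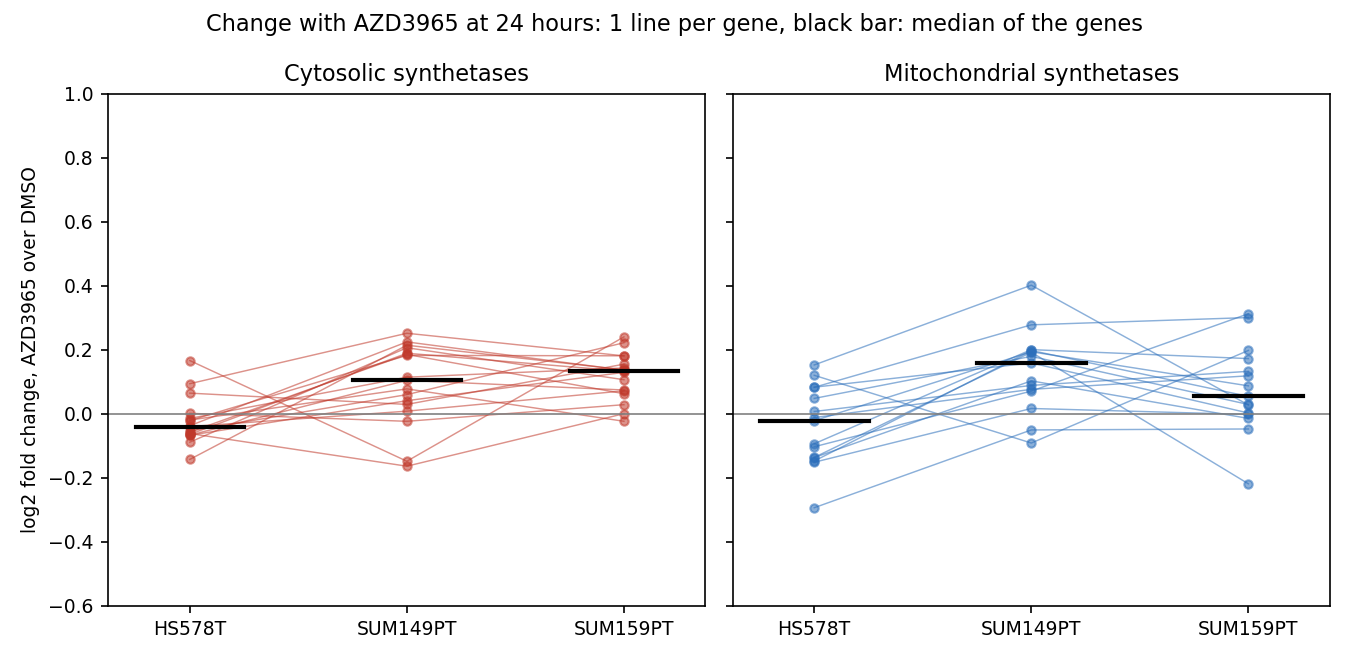
Log2 fold change with AZD3965 over DMSO in each line for 17 cytosolic and 15 mitochondrial synthetase genes, 1 line per gene, with the median of the genes as a black bar. The medians lie between -0.04 and 0.16 and no gene passed an adjusted p of 0.05.

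Under DMSO the 3 lines differed in most synthetase genes, as they did in most genes of any kind. Differences of HS578T from the other lines cannot be told apart from those between their media. Of the 32 members 12 were called in all 3 pairs of lines, 12 in 2 pairs, 6 in 1 pair and 2, NARS1 and FARS2, in none. Of all genes 30.1% were called in all 3 pairs, 41.4% in 2, 8.51% in 1, and the other 2825 of 14141 in none. The share called was 78.1% of members and 64.2% of all genes for HS578T minus SUM149PT, 65.6% and 58.0% for HS578T minus SUM159PT, and 62.5% and 59.4% for SUM149PT minus SUM159PT. Between HS578T and SUM149PT 25 were called, 10 higher and 15 lower in HS578T, beside 30.4% and 33.8% of all genes. Of the 10 higher ones 9 were cytosolic, and of the 15 lower ones 8 were mitochondrial, with medians of 0.20 for cytosolic and -0.33 for mitochondrial members. Some of these calls depend on the setting. Centring lost those of AARS1, HARS1 and LARS1, and quantile normalization that of IARS1. With the mean of probe sets EPRS1, WARS2 and YARS1 were lost and CARS2 changed sign.

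The threonyl enzyme gene TARS1 separated SUM149PT from the other 2 lines. It gave 9857, 11457 and 11196 in HS578T, against 3530, 3381 and 3509 in SUM149PT, a log2 difference of 1.63 ± 0.09 (adjusted p = 8.0e-14). SUM159PT, at 10723, 10430 and 10286, differed from HS578T by less than its spread (HS578T minus SUM159PT 0.05 ± 0.09, 0.70). CARS1 gave 9848, 9193 and 8086 in HS578T, 4135, 4610 and 4183 in SUM149PT and 5834, 6435 and 5979 in SUM159PT, and all 3 pairs were called. GARS1 and WARS1 had the same order of lines, at 1.02 ± 0.11 and 0.94 ± 0.09 for HS578T minus SUM149PT and 0.52 ± 0.11 and 0.57 ± 0.09 for HS578T minus SUM159PT. AARS1 differed little, at 0.23 ± 0.08 for HS578T minus SUM149PT (0.010) and 0.06 ± 0.08 for HS578T minus SUM159PT (0.52). The call of AARS1 for HS578T minus SUM149PT was lost with centring and without the first HS578T or the third SUM149PT array. Among the other calls for HS578T minus SUM149PT, leaving out a single DMSO array lost that of EARS2 (4 of the 6 arrays), LARS1 (the third of SUM149PT) and WARS2 (the third of HS578T).

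Several mitochondrial members were low in HS578T. MARS2 gave 95.4, 132 and 116 in HS578T, against 432, 519 and 501 in SUM149PT and 447, 428 and 386 in SUM159PT. Its log2 differences were -1.94 ± 0.12 for HS578T minus SUM149PT (9.0e-13) and -1.75 ± 0.12 for HS578T minus SUM159PT (1.0e-11), while SUM149PT minus SUM159PT was not called (0.20 ± 0.12, 0.17). VARS2 gave 830, 760 and 483 in HS578T, against 2615, 2749 and 2550 in SUM149PT and 979, 907 and 996 in SUM159PT. It was highest in SUM149PT, at -1.94 ± 0.13 for HS578T minus SUM149PT and 1.44 ± 0.13 for SUM149PT minus SUM159PT. IARS2 followed the same order with -1.54 ± 0.07 for HS578T minus SUM149PT and 0.89 ± 0.07 for SUM149PT minus SUM159PT. RARS2 went the other way and was the 1 mitochondrial member higher in HS578T than in SUM149PT, at 0.85 ± 0.08 (3.4e-09).

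Between HS578T and SUM159PT 21 members were called, 7 higher and 14 lower in HS578T, beside 27.3% and 30.7% of all genes. The higher ones were SARS1 (0.62), CARS1, WARS1, GARS1, YARS1 (0.43), AARS2 (0.27, adjusted p = 0.048) and RARS2 (0.26, 0.0099). AARS2 was called in only 8 of 16 alternatives, was lost without the first array of either line, and turned to -0.11 with the mean of probe sets. RARS2 lost its call in 4, including without the first array of HS578T (adjusted p = 0.087) or of SUM159PT (0.055). With the mean of probe sets YARS1 lost its call (adjusted p = 0.055). In that setting LARS1, a lower one, lost its call too (0.60), and EPRS1, also lower, turned to 0.0069. Among the lower ones EARS2 (-1.24 ± 0.15), VARS1 (-1.10 ± 0.14), FARSB (-1.01 ± 0.08), LARS2 (-0.83 ± 0.09), FARSA (-0.79 ± 0.08) and YARS2 (-0.78 ± 0.17) had the largest differences after MARS2. Both subunits of the phenylalanyl enzyme and the valyl enzyme gene VARS1 were thus lowest in HS578T of the 3 lines. Between SUM149PT and SUM159PT 20 were called, 7 higher and 13 lower in SUM149PT, beside 30.0% and 29.3% of all genes. After VARS2 the higher ones were PARS2 (1.10 ± 0.16), IARS2, CARS2 (0.69 ± 0.07), NARS2, EPRS1 (0.38 ± 0.08) and FARSA (0.25). With the mean of probe sets CARS2 stood at 0.21 (adjusted p = 0.17) and EPRS1 at 0.13 (0.63), and with centring FARSA stood at 0.27 (0.057), so that these calls depend on the setting. The lower ones ran from -1.59 ± 0.09 in TARS1 to -0.30 ± 0.09 in HARS2 and included HARS1 (-0.55 ± 0.06), whose gene lies next to HARS2 on chr5 (140673905-140691370 and 140691455-140699305). Among the lower ones SARS2 lost its call without the first SUM159PT array (adjusted p = 0.066) and FARSB with the mean of probe sets (-0.06, 0.70).

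By mean signal, HS578T was the highest of the 3 lines for 8 of 17 cytosolic and 2 of 15 mitochondrial members, and the lowest for 7 and 9. SUM149PT was the highest for 4 cytosolic and 7 mitochondrial members and the lowest for 9 and 3. SUM159PT was the highest for 5 and 6 and the lowest for 1 and 3. This order counts neighbours that did not differ beyond their spread. Over the paired enzymes, the cytosolic gene had the more positive difference in 9 of 13 pairings for HS578T minus SUM149PT, 7 of 13 for HS578T minus SUM159PT and 5 of 13 for SUM149PT minus SUM159PT.

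**Figure D5:**
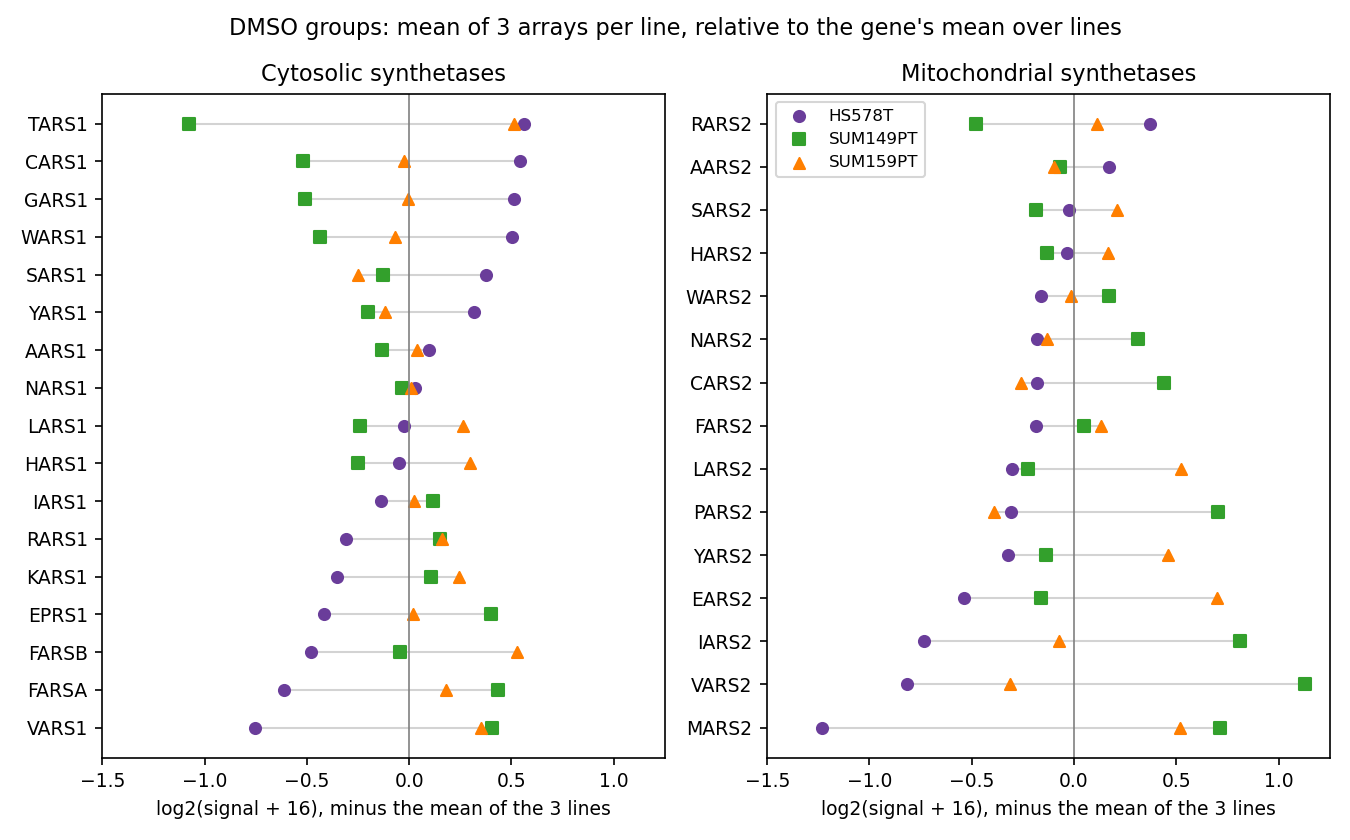
Mean log2(signal + 16) of 3 DMSO arrays in each line, minus the mean of the gene over the 3 lines, for 17 cytosolic and 15 mitochondrial synthetase genes, ordered by HS578T. CARS1, GARS1 and WARS1 lie highest in HS578T and lowest in SUM149PT. TARS1 lies lowest in SUM149PT, with HS578T and SUM159PT close together, and MARS2, VARS2 and IARS2 lie lowest in HS578T.

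The 2 control groups of SUM149PT also differed in some of these genes, at a total share near that of all genes. This comparison was added after the values were seen. Scramble shRNA minus DMSO called 10 members, 7 higher and 3 lower, beside 17.7% and 15.3% of all genes. CARS1 gave 7600, 7038 and 6612 with scramble shRNA, against 4135, 4610 and 4183 with DMSO (0.71 ± 0.09, 2.8e-06). FARSA gave 1403, 1866 and 1626, against 2799, 2783 and 2785 (-0.78 ± 0.08, 2.1e-07). RARS1 (-0.57 ± 0.09) and HARS1 (-0.28 ± 0.06) were also lower, and WARS2 (0.63 ± 0.12), RARS2 (0.53 ± 0.08), VARS2 (0.40), FARSB (0.30), HARS2 (0.27) and CARS2 (0.27) were higher. AARS1 (0.13, 0.21) and WARS1 (-0.13, 0.29) were not called. The groups differ in virus, selection, vehicle, experiment and actin control ratio, which cannot be told apart, so each treatment is read against its own control.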

How the data were processed

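Labelled cRNA of 24 samples was hybridised to 1 array each. The authors deposited linear intensity values that the submitters' processing notes call MAS5, with no version in the sources used here. The trimmed mean signal (2% left out at each end) was 500.1 on every array, and medians ran from 49.2 to 67.4. The number of arrays limits the precision. Of 54675 probe sets 41097 had 1 gene symbol, 1801 several and 11777 none. No probe set with 1 symbol was named for MCT1, so the knockdown was not checked.

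For each gene the probe set of highest mean log2(signal + 16) was kept, an offset that understates changes of dim genes. Genes with a mean under 5.58, the 40th percentile over probe sets, were left out, and the other 14141 were fitted with limma 3.58.1 in R 4.3.3 (8 group means, 24 arrays, 16 residual and 6.52 prior degrees of freedom, mean-variance trend). Tests were two-sided with Benjamini-Hochberg adjustment over all genes, called at an adjusted p under 0.05. Errors of log2 values are SE. The fit was tested on simulated data. Members with calls in a comparison, or the 3 of smallest p, were named. Members and gene lists were chosen with earlier results of these data known. Alternatives changed normalization, centring, offset, filter, probe set, arrays fitted, weights, replicate block and single arrays. Promoters came from RefSeq (GRCh38.p14).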

Additional observations from a re-analysis of the deposited data

How the results depend on the processing

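Over 10 alternative settings the count of members called with MCT1 shRNA ran from 7 to 11 (10 as reported), and leaving out single arrays gave 8 to 11. AARS1, CARS1, GARS1, SARS1 and WARS1 were called in all 16 alternatives, EPRS1 was lost with the mean of probe sets (adjusted p = 0.11), IARS1 with centring (0.086), YARS1 in 5, TARS1 in 7 and LARS1 in 7, and LARS1 reversed to -0.19 with the mean of probe sets. For the difference of the shRNA and drug effects (6 members), centring on the median gave 2, other settings 4 to 8, and leaving out single arrays 3 to 7; FARSB turned to 0.66 with the mean of probe sets. For AZD3965, array weights called 1 member in HS578T (MARS2, -0.39, adjusted p = 0.033), single arrays left out gave 0 to 3 in SUM149PT and 0 to 0 in the other drug comparisons. For the lines the counts without single arrays were 23 to 24, 20 to 23 and 19 to 21.

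Averaging probe sets also turned AARS2 (HS578T minus SUM159PT, -0.11), CARS2 (HS578T minus SUM149PT, 0.058), EPRS1 (HS578T minus SUM159PT, 0.0069), and the drug effects listed as SARS1, AZD3965 effect averaged over lines (-0.00876) and SARS1, AZD3965 effect in SUM159PT (-0.022). Quantile normalization turned KARS1 (-0.054 on average and -0.054 in SUM149PT), and centring turned HARS2 (0.011) and LARS2 (0.0072) with AZD3965 in HS578T. None of these drug effects was called as reported. The causes were not tested. Leaving out the third scramble array for the genes around charging and the markers was chosen after seeing the data. Of 1576 gene values under alternatives 1489 kept direction and side of the threshold, 73 lost the call, 3 gained it and 11 reversed. For the shRNA effect 138 of 160 were kept, 21 lost the call and 1 reversed. For the difference of the shRNA and drug effects 112 of 132 were kept, 19 lost the call and 1 reversed.

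With only the arrays compared, 864 of all genes were called for the shRNA effect in SUM149PT, against 2101 as reported. For shRNA effect minus AZD3965 effect in SUM149PT, 521 were called with centring, 854 with the mean of probe sets, 795 with only the arrays compared and 874 without the first DMSO array, against 1346. Array weights called 388 genes for AZD3965 effect in HS578T, 188 for AZD3965 effect in SUM149PT, 5 for AZD3965 effect in SUM159PT, 147 for AZD3965 effect averaged over lines and 148 for AZD3965 effect differing between lines, against 43, 4, 0, 4 and 17; without single arrays these ran to 648 genes at most. Same-numbered arrays did not deviate together in the shRNA pair (r = 0.02, -0.05 and -0.006), nor above 0.1 in any drug pair, and in SUM149PT and SUM159PT under DMSO r was 0.15, 0.07 and 0.23, so not every pair passed 0.1 and the arrays share only a number. The replicate block gave 11 members with MCT1 shRNA, 6 for the difference of effects, 0 for each AZD3965 comparison, and 25, 20 and 20 for the lines. Between AZD3965 and DMSO in SUM149PT, and between SUM149PT and SUM159PT under DMSO, each of 3 arrays correlated best with its own number. This is a hint from the data only.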
